A study of Danio rerio with 6 samples.

Results

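The lncRNAs described here are assembled transcripts of zebrafish ZF4 cells whose nearest gene, as the deposited table names it, belongs to kinase or GTPase signalling. They were taken by gene name only, from 41 prefixes of such genes in lower case (tbc1d, rab, mapk, prk and igf1r among them), and the rule uses no measured value. The rule found 133 of the 8363 transcripts in the table, at 77 genes and 115 assembled loci. The 3071 transcripts at 2180 other named genes were used for comparison. ZF4 is a fibroblast line from zebrafish embryos. Total RNA depleted of ribosomal RNA came from 3 cultures grown for 30 days at 18°C (cold acclimated cells) and from another 3 grown at 28°C (control cells), so the data speak for 1 cell line and 1 time of exposure. The table gives 1 FPKM value for each group (fragments mapped to a transcript, divided by its length and by the size of the library), and 98.7% of the values multiplied by 3 fall on a number with 6 decimals (within 1e-08), as a mean over the 3 cultures would. No value of a single culture was used here. Hence the spread between cultures is unknown, no test between the groups was made, and every difference below is a difference between 2 means. The level of the neighbouring genes' own mRNA and of fibroblast markers was not analysed.

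Kinases pass a signal on by adding phosphate to other proteins, and small GTPases do so by switching between a GTP-bound and a GDP-bound state. Exchange factors (GEFs) load GTPases with GTP, and GTPase-activating proteins (GAPs) return them to the GDP-bound state. In fibroblasts these pathways carry growth factor signals from the cell surface to the ribosome, the cytoskeleton and the cell cycle. A lncRNA near such a gene may lie in an intron, overlap an exon, run antisense or be an unannotated isoform. The table does not mark which of these holds, nor the strand, so the gene name below gives a position and not a function of the lncRNA. Roles of the genes are those known from mammals.

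The lncRNAs at kinase and GTPase genes were short and low. Their length had a median of 594 nt, with a range of 200 to 4162 nt, against a median of 499 nt at the other named genes. A single exon was listed for 75 of the 133 (56.4%), against 60.2% at the other named genes, and 14 had 3 or more exons, up to 6. The median level was 0.587 FPKM in cold acclimated cells and 1.01 FPKM in control cells. At the other named genes these medians were 0.806 and 1.17 FPKM. Of the members, 73 (54.9%) averaged under 1 FPKM over both groups. Abundance was concentrated at gfra2a, whose 10 transcripts held 68.5% of the summed FPKM of the 133 in cold acclimated cells, against 64.4% in control cells. Outside gfra2a, only 10 transcripts exceeded 4 FPKM in either group. The members lay on 24 of the 25 chromosomes, from 14 on chromosome 2 and 12 on chromosome 8 (10 of them at gfra2a) to none on chromosome 1, and none lay on an unplaced scaffold.

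**Figure D1:**
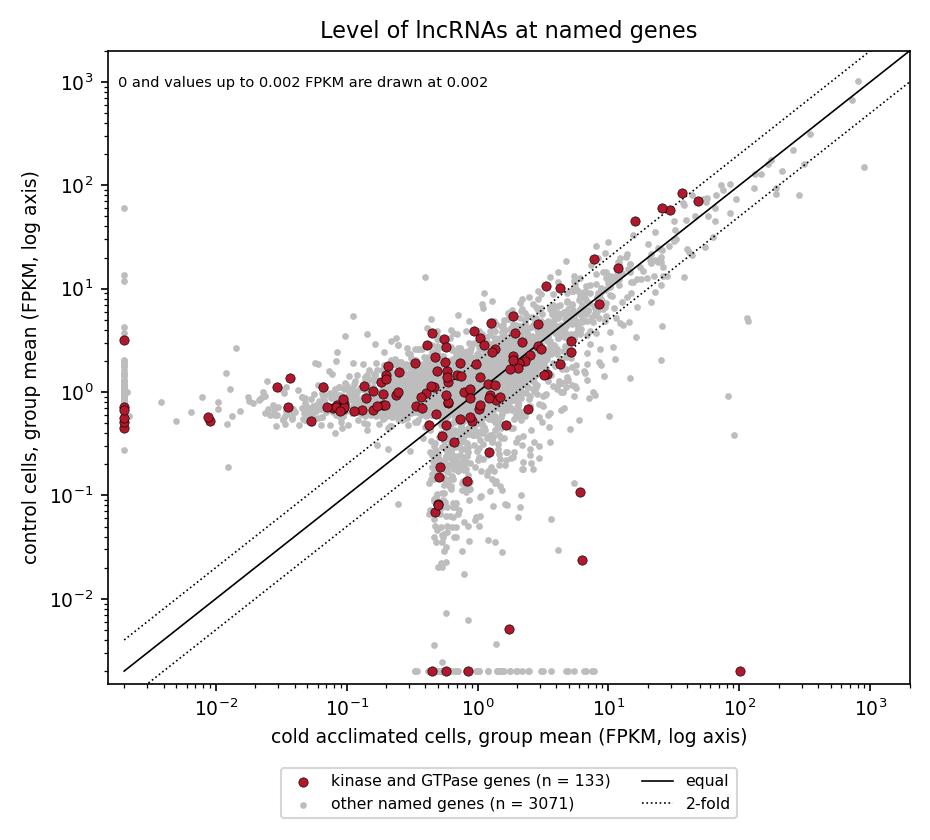
Group mean in cold acclimated cells (x axis, FPKM, log scale) against that in control cells (y axis, FPKM, log scale), with 1 point per lncRNA at a named gene. Red points are the 133 lncRNAs at kinase and GTPase genes, most of them above the line of equal level, and the point at the lower right is the gfra2a transcript MSTRG.29549.5, with 101 FPKM in cold acclimated cells and a listed 0 in control cells.

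To compare the groups, 0.1 FPKM was added to each mean and the log2 ratio was taken with cold acclimated cells on top. The added value makes the change of low transcripts look smaller. It was used for the 129 members above 0.5 FPKM in at least 1 group. The authors kept transcripts above 0.5 FPKM in at least 1 sample. Under both filters a transcript that is low in one group has to be high in the other, so the size of many ratios is set in advance. Above 0.5 FPKM in both groups were 63 members, in cold acclimated cells only 16, and in control cells only 50. These are 48.8%, 12.4% and 38.8% of the members, against 54.9%, 11.7% and 33.3% of all lncRNAs. The remaining 4 members, at arhgef3, arhgef9a, ntrk3a and rab27a, stayed below 0.5 FPKM in both groups.

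The lncRNAs at kinase and GTPase genes were mostly lower in cold acclimated cells. More than 2-fold lower were 64 of the 129 (49.6%), which lay at 37 genes, and more than 2-fold higher were 18 (14.0%), at 15 genes. Among all 8108 lncRNAs above the filter, 39.4% were more than 2-fold lower and 13.3% more than 2-fold higher. Among those at other named genes, 36.5% were lower and 14.0% higher. The median log2 ratio was -0.97 for the members and -0.58 for the other named genes. Because the median over all lncRNAs was itself -0.63, the ratios were also centred on it. Then 42 members (32.6%) were more than 2-fold lower and 29 (22.5%) more than 2-fold higher. The background was then 23.9% lower and 23.5% higher over all lncRNAs, and 21.7% lower and 24.2% higher at other named genes. The share of members with a log2 ratio below 0 was 68.2%, close to the 67.2% of the other named genes. The members thus differed in the number of ratios far below 0 more than in the number below 0. Above 0.5 FPKM in control cells only, where the filter sets the direction in advance, were 38.8% of members and 30.8% of other named genes. Among transcripts above 0.5 FPKM in both groups, the median log2 ratio was -0.37 for members and -0.24 for other named genes. Without gfra2a, this median of the members was -0.25. In RNA of whole cultures, fewer cells with a transcript and less of it per cell cannot be told apart.

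Many of the lower transcripts lay at a few genes with many transcripts. The 11 genes with 3 or more listed transcripts hold 51 of the members and 31 of the 64 that were more than 2-fold lower. At the genes with 1 or 2 transcripts, 42.3% of 78 were more than 2-fold lower, with a median log2 ratio of -0.70. The other named genes were not split in this way, so whether such a concentration is particular to the members was not examined. When the FPKM was summed over the transcripts of each gene (a calculation added once the values were known), 29 of 75 genes (38.7%) were more than 2-fold lower and 10 (13.3%) more than 2-fold higher. Summed likewise, the other named genes gave 34.4% lower and 12.9% higher of 2118. The median log2 ratio of the sums was -0.65 for kinase and GTPase genes and -0.53 for the others. On the deposited scale the members were thus nearer to the background by gene than by transcript. Relative to the median of all lncRNAs a gap remained in the share of lower genes, with 28.0% of the summed kinase and GTPase genes against 18.8% of the others. The shares that were more than 2-fold higher were then 24.0% and 23.1%. On that scale the median of the sums was -0.02 for kinase and GTPase genes, near the median of all lncRNAs, and 0.11 for the others.

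**Figure D2:**
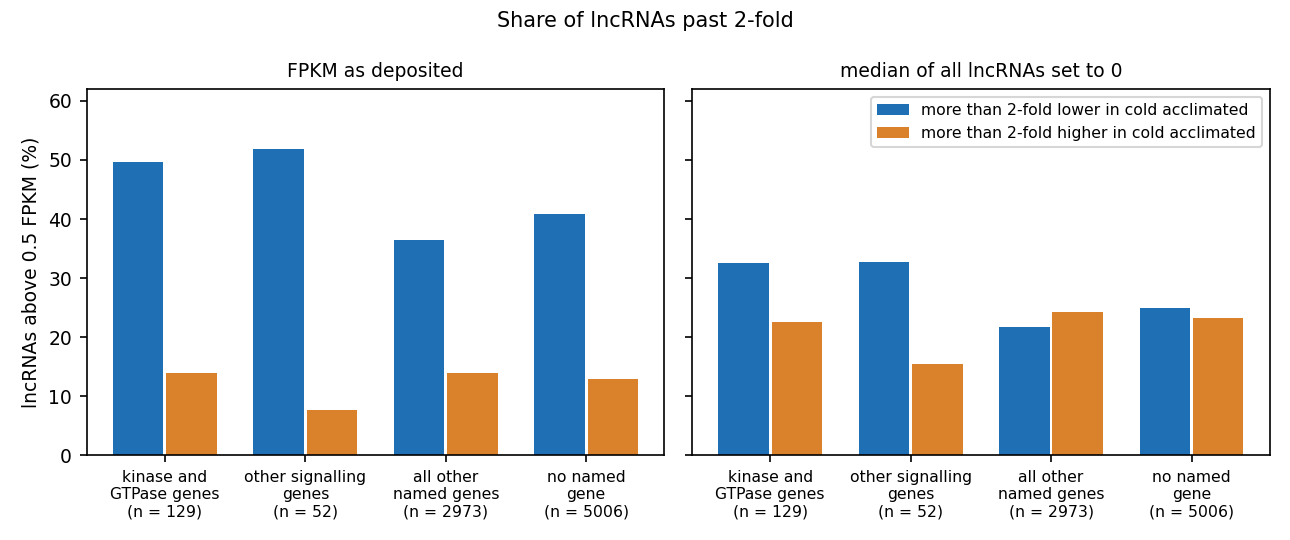
Share of lncRNAs above 0.5 FPKM that were more than 2-fold lower (blue) or higher (orange) in cold acclimated than in control cells, in percent, for 4 sets with their number of transcripts, where the other named genes include the other signalling genes. With FPKM as deposited, 49.6% of the lncRNAs at kinase and GTPase genes were lower, against 36.5% at other named genes, and with the median of all lncRNAs set to 0 these shares were 32.6% and 21.7%.

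The difference from other named genes was split by abundance, exon number and length. Of members averaging up to 1 FPKM over both groups, 60.9% were more than 2-fold lower in cold acclimated cells, against 52.9% at the other named genes. From 1 to 2 FPKM the shares were 37.9% and 27.0%, and above 2 FPKM they were 35.5% and 14.4%. Of members up to 1 FPKM that passed the filter, 63.8% were above 0.5 FPKM in control cells only, against 56.8%. The filter sets the direction of these in advance. The 11 lower members above 2 FPKM lay only at gfra2a, rps6kb1a, tbc1d7, camk2a and tgfbr3. Most of them were overlapping transcripts at gfra2a and rps6kb1a. By exon number, the gap was wider among spliced transcripts. Of members with 2 or more exons, 27 of 57 (47.4%) were more than 2-fold lower, against 25.6% at the other named genes. These 27 lay at only 12 genes, and 19 of them at genes with 3 or more listed transcripts. Among transcripts with 1 exon the shares were 51.4% and 43.9%. Above 0.5 FPKM in control cells only, where the filter sets the direction in advance, were 48.6% of 1-exon members, against 40.6%. Among 1-exon transcripts above 0.5 FPKM in both groups, the median log2 ratio was 0.03 for members and -0.38 for other named genes. With 2 or more exons these medians were -0.65 and -0.13. By length, the gap lay mainly in transcripts over 500 nt, with 55.1% of members lower against 34.6%. Up to 500 nt the shares were 41.2% and 38.5%, and the members had a median log2 ratio of -0.39 against -0.57 at the other named genes. Over 500 nt, 35.9% of members were above 0.5 FPKM in control cells only, against 25.4%. Among transcripts above 0.5 FPKM in both groups, the medians up to 500 nt were 0.22 for members and -0.15 for other named genes. Over 500 nt they were -0.74 and -0.32. No test was made of these differences, since transcripts of a gene are not independent of each other.

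The receptors are described first. Receptor tyrosine kinases bind growth factors outside the cell and phosphorylate tyrosines inside it, and several work with coreceptors that have no kinase of their own. Of the 9 members above the filter at such receptors other than gfra2a, 6 were more than 2-fold lower in cold acclimated cells, also relative to the median of all lncRNAs, and 1 was more than 2-fold higher. Over all lncRNAs, 39.4% were more than 2-fold lower and 13.3% higher, or 23.9% and 23.5% after centring. Apart from MSTRG.12403.1, the lower transcripts were above 0.5 FPKM in control cells only, so the filter sets their direction in advance. At egfra, the EGF receptor gene on chromosome 2, both transcripts have 2 exons and both were lower. MSTRG.12403.1 (3891056 to 3893270) had 0.559 FPKM in cold acclimated cells and 3.24 FPKM in control cells, a log2 ratio of -2.34. MSTRG.12405.1 (3930309 to 3988472) had 0.199 and 1.46 FPKM, a log2 ratio of -2.39. The transcripts at the paralogous IGF1 receptor genes behaved unequally. At igf1rb on chromosome 7, MSTRG.27455.1 and MSTRG.27456.1 had log2 ratios of -1.66 and -2.08. At igf1ra on chromosome 18, MSTRG.10691.1, of 1 exon, had 0.333 FPKM in cold acclimated cells and 1.90 FPKM in control cells. MSTRG.10690.1, of 6 exons, had 2.52 and 2.30 FPKM.

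The lowest ratio in the class of tyrosine kinase receptors and coreceptors belonged to MSTRG.4503.1 at gfral, the receptor of the stress cytokine GDF15, with 1 exon on chromosome 13 (1865438 to 1865843). It had 0.135 FPKM in cold acclimated cells and 1.15 FPKM in control cells, a log2 ratio of -2.42. The 1 transcript outside gfra2a that was more than 2-fold higher was MSTRG.27449.1 at ntrk3b, a gene for the receptor of neurotrophin-3, with 0.506 FPKM in cold acclimated cells and 0.150 FPKM in control cells. Both of its levels are low, and its log2 ratio was 1.27.

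The receptors of the TGF-beta superfamily are serine/threonine kinases, which phosphorylate Smad proteins. All 5 transcripts of this class were more than 2-fold lower, with log2 ratios from -2.81 to -1.62. Relative to the median of all lncRNAs, 4 of the 5 were so. Among all lncRNAs above the filter these shares were 39.4% and 23.9%. Of the 5 transcripts, 4 lie at tgfbr3, which encodes betaglycan, a coreceptor without a kinase domain. They follow one another without overlap over 132 kb of chromosome 6 (24323838 to 24456053), each with 2 exons. MSTRG.26243.1 had 0.449 FPKM in cold acclimated cells and 3.74 FPKM in control cells, a log2 ratio of -2.81. MSTRG.26244.1 had 0.408 and 2.88 FPKM, MSTRG.26246.1 had 0.250 and 1.58 FPKM, and MSTRG.26247.1 had 0.0710 and 0.723 FPKM. Although their levels differed, the 4 log2 ratios lay between -2.81 and -2.26. All 4 were above 0.5 FPKM in control cells only, so the filter sets their shared direction in advance. Summed over the gene, 1.18 FPKM in cold acclimated cells stood against 8.92 FPKM in control cells. The fifth, MSTRG.1330.1 at the type I BMP receptor gene bmpr1bb on chromosome 10, had 0.566 and 1.94 FPKM, a log2 ratio of -1.62.

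**Figure D3:**
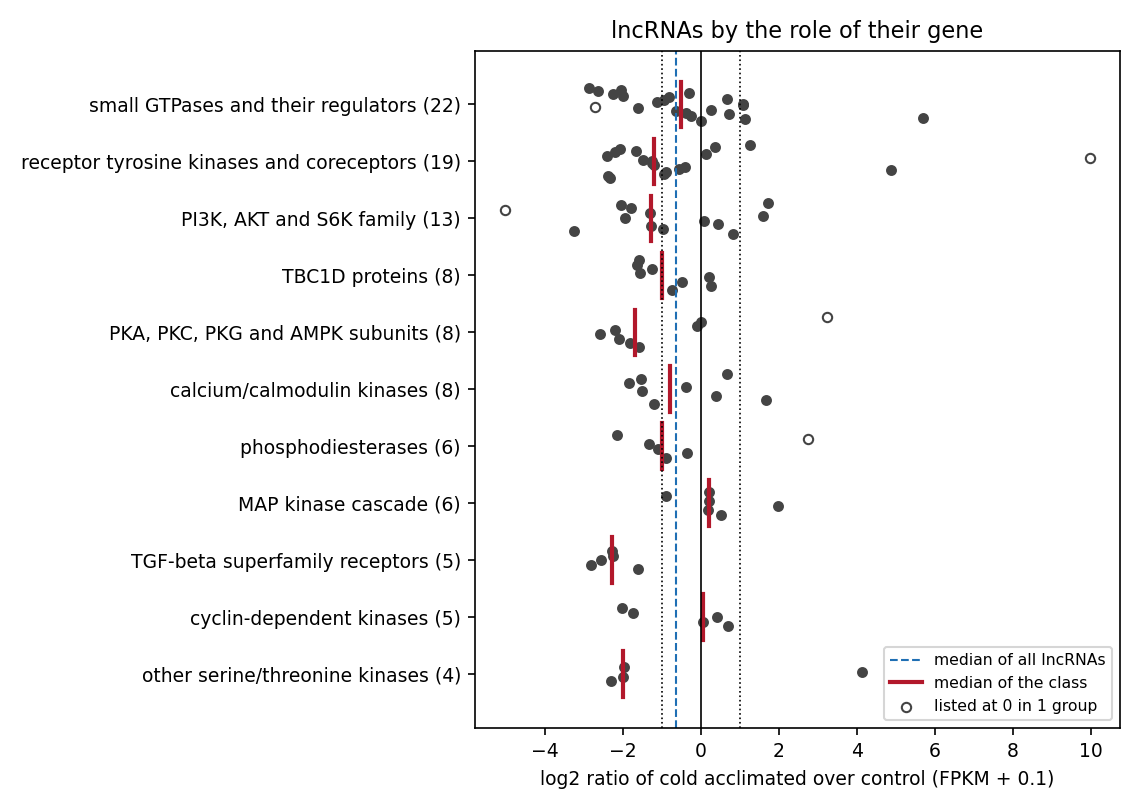
Log2 ratio, cold acclimated over control (x axis, FPKM + 0.1), of members above the filter by the role of their gene (rows, 11 classes with the number of transcripts). Each point is 1 lncRNA, red bars are class medians, the dashed line is the median of all lncRNAs at -0.63, dotted lines mark 2-fold, and open points are listed at 0 in 1 group, so that their place is set by the added 0.1 FPKM. The TGF-beta superfamily class lies wholly below -1, and the MAP kinase class has 5 of 6 points above 0.

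At gfra2a the total was within 2-fold while single transcripts were not. The gene encodes a membrane-anchored coreceptor for neurturin, a ligand of the GDNF family that signals through the RET kinase. Its 10 transcripts have 2 exons each and overlap within 9.56 kb of chromosome 8 (42076795 to 42086357), under 2 assembled loci. Of these, 5 share their listed interval with another. MSTRG.29549.5, of 2162 nt, was listed at 0 in control cells and had 101 FPKM in cold acclimated cells, the highest value among all members. The other 4 transcripts of that locus were lower in cold acclimated cells. MSTRG.29549.4 had 36.7 FPKM in cold acclimated cells and 84.7 FPKM in control cells, a log2 ratio of -1.21. MSTRG.29549.1 had 29.6 and 57.2 FPKM, a log2 ratio of -0.95. MSTRG.29549.3 and MSTRG.29549.2 had log2 ratios of -0.42 and -0.90. Relative to the median of all lncRNAs, MSTRG.29549.3 was not lower (0.22).

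At the second gfra2a locus, MSTRG.29550.1 and MSTRG.29550.2 share an interval (42076831 to 42085359) and a length of 535 nt, but differed in direction on the deposited scale. MSTRG.29550.1 had 6.04 FPKM in cold acclimated cells and 0.108 FPKM in control cells. MSTRG.29550.2 had 48.0 and 70.3 FPKM, and relative to the median of all lncRNAs it was not lower (0.08). MSTRG.29550.6, MSTRG.29550.8 and MSTRG.29550.9 had log2 ratios of -1.25, -1.25 and -1.49. Summed over all 10 transcripts, the FPKM was 281 in cold acclimated cells against 348 in control cells, a log2 ratio of -0.31. Without MSTRG.29549.5 the sum was 180 in cold acclimated cells, and the log2 ratio -0.95. When each FPKM was multiplied by its transcript's length, to give a measure of fragments, the sums were 394 and 353, with a log2 ratio of 0.16. The direction of the total thus depended on the scale. Overlapping transcripts compete for the same reads. How far that moved the value of any 1 of them, MSTRG.29549.5 included, was not tested.

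**Figure D4:**
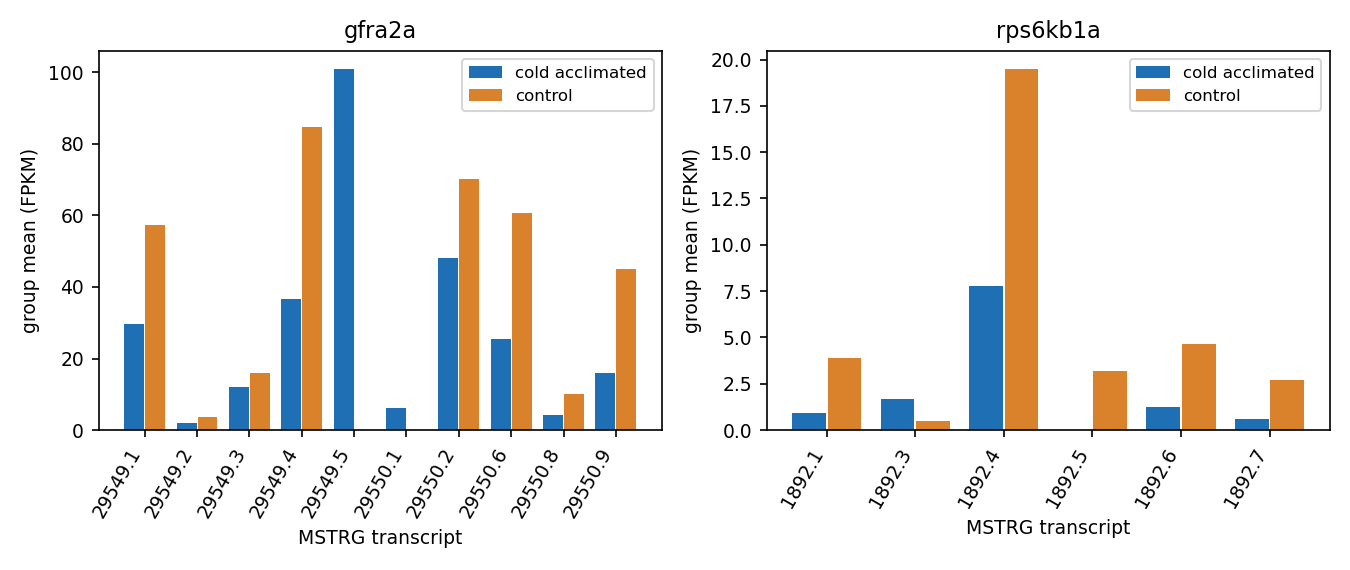
Group means (y axis, FPKM) of the 10 overlapping transcripts at gfra2a and the 6 at rps6kb1a (x axis) in cold acclimated (blue) and control cells (orange), with no error bar because each bar is 1 mean. At gfra2a, MSTRG.29549.5 stands at 101 FPKM in cold acclimated cells only, and at rps6kb1a, 5 of the 6 are lower in cold acclimated cells.

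Inside the cell, growth factor receptors act on PI3 kinase, AKT and mTORC1, which switches on the S6 kinases. In this class 7 of 13 transcripts were more than 2-fold lower and 2 more than 2-fold higher. Relative to the median of all lncRNAs, 5 were lower and 4 higher. The shares of all lncRNAs were 39.4% lower and 13.3% higher, or 23.9% and 23.5% after centring. Of the 7 lower on the deposited scale, 5 are overlapping transcripts at rps6kb1a. The largest group lies at rps6kb1a, which encodes the S6 kinase that phosphorylates ribosomal protein S6. Its 6 transcripts overlap each other within 95.9 kb of chromosome 10 (28259756 to 28355647) and have 2 to 6 exons. The most abundant, MSTRG.1892.4, had 7.78 FPKM in cold acclimated cells and 19.5 FPKM in control cells, a log2 ratio of -1.31. MSTRG.1892.5, of 6 exons, was listed at 0 in cold acclimated cells and had 3.18 FPKM in control cells. MSTRG.1892.3, over the same interval with 5 exons, had 1.66 and 0.480 FPKM, a log2 ratio of 1.60. The remaining 3 had log2 ratios of -1.95, -1.80 and -2.06. Here the sum lay on the same side as most of the transcripts on either scale. It was 12.2 FPKM in cold acclimated cells and 34.4 FPKM in control cells, a log2 ratio of -1.49, or -1.44 in fragments.

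The other 7 transcripts of this class lay at 5 genes. At akt3a on chromosome 13, 2 transcripts differed in direction. MSTRG.4732.1 had 0.0292 FPKM in cold acclimated cells and 1.13 FPKM in control cells, a log2 ratio of -3.25. MSTRG.4731.1 had 0.666 and 0.330 FPKM. Each of these 2 was above 0.5 FPKM in 1 group only, so the filter sets their directions in advance. The largest ratio of the class was that of MSTRG.10117.1 at rps6kl1, which had 0.501 FPKM in cold acclimated cells and 0.0826 FPKM in control cells.

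The TSC complex holds mTORC1 back, and TBC1D7 is one of its subunits. The table names tbc1d7 for 7 transcripts, which extend over 278 kb of chromosome 20 (52736032 to 53013908) at 6 loci. They lay in 2 stretches. At the low-coordinate end, MSTRG.14894.1 had 8.53 FPKM in cold acclimated cells and 7.13 FPKM in control cells. MSTRG.14894.2 and MSTRG.14895.1, beside it, had log2 ratios of -0.48 and 0.21. The other 4, from 52802017 onwards, were all more than 2-fold lower, with log2 ratios from -1.64 to -1.26. Of these MSTRG.14911.1 was the most abundant, with 3.36 and 10.7 FPKM. Relative to the median of all lncRNAs it alone of the 4 remained beyond 2-fold.

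AMPK senses a low energy charge, and its gamma subunits bind AMP and ATP. At the gamma subunit gene prkag2b, 5 transcripts of 1 exon and 243 to 599 nt lie without overlap over 68.0 kb of chromosome 2 (13381402 to 13449376). All 5 were more than 2-fold lower, and 4 of the 5 relative to the median of all lncRNAs. Their levels were narrow in each group, from 0.0354 to 0.160 FPKM in cold acclimated cells and from 0.652 to 1.02 FPKM in control cells, a separation that the filter sets in advance, since transcripts this low in one group are kept only when above 0.5 FPKM in the other. The log2 ratio was lowest for MSTRG.12638.1, at -2.58. Elsewhere in the class of PKA, PKC, PKG and AMPK genes the picture differed. MSTRG.29039.1 at prkcz, an atypical protein kinase C, had 1.88 FPKM in cold acclimated cells and 2.02 FPKM in control cells. MSTRG.9892.1 at prkd3 had 0.878 and 0.870 FPKM. MSTRG.5296.1 at prkg1a, a cGMP-dependent kinase, was listed at 0 in control cells and had 0.840 FPKM in cold acclimated cells.

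**Figure D5:**
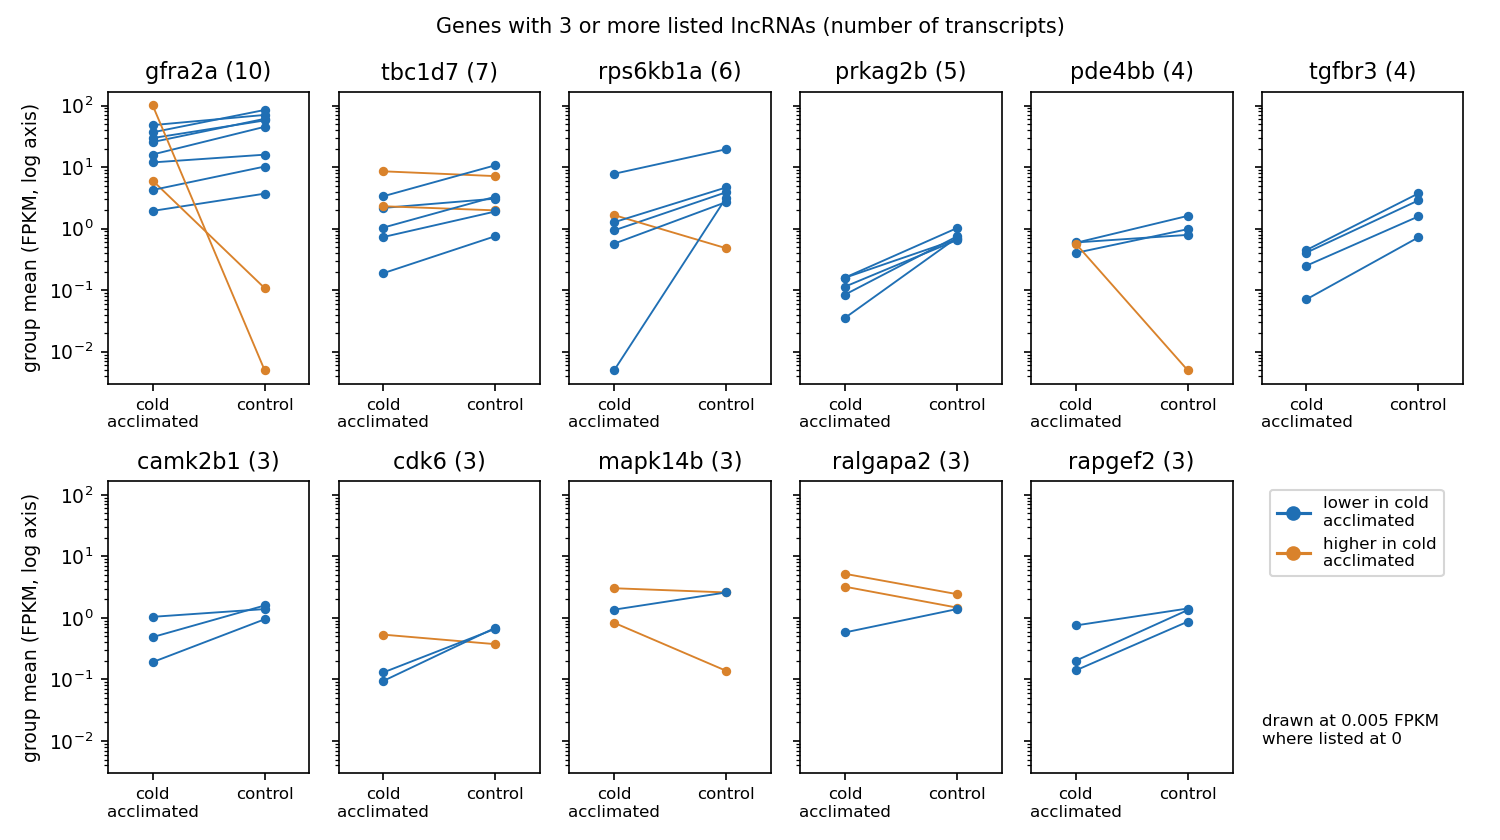
Group means (y axis, FPKM, log scale) of each transcript at the 11 genes with 3 or more listed lncRNAs, in cold acclimated cells (left) and control cells (right), joined by a line that is blue where cold acclimated cells are lower and orange where they are higher. All 5 lines of prkag2b, all 4 of tgfbr3 and all 3 of camk2b1 and rapgef2 are blue, while gfra2a, ralgapa2, mapk14b and others hold both colours. The filter sets the direction of every line of prkag2b and tgfbr3 in advance, and of some lines of camk2b1 and rapgef2.

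Small GTPases such as those of the Ras, Rap, Ral and Rab families and their partners were represented by 23 transcripts at 16 genes. Of 22 above the filter, 8 were more than 2-fold lower and 4 more than 2-fold higher. Relative to the median of all lncRNAs 6 were lower and 6 higher, so this class did not lean to either side on that scale. The shares of all lncRNAs were 39.4% lower and 13.3% higher, or 23.9% and 23.5% after centring. The highest ratio belonged to MSTRG.20950.4 at rab11fip4a, an effector of Rab11 in recycling endosomes, with 3 exons on chromosome 3 (35829444 to 35995001). It had 6.29 FPKM in cold acclimated cells and 0.0239 FPKM in control cells, a log2 ratio of 5.69. The overlapping MSTRG.20950.3, also of 3 exons, had 3.40 and 1.50 FPKM. Both were higher in cold acclimated cells, and so was their sum of 9.69 FPKM in cold acclimated cells against 1.52 FPKM in control cells.

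At rapgef2, a GEF for Rap GTPases, 3 transcripts over 213 kb of chromosome 14 (48802860 to 49015724) all had a log2 ratio below 0. MSTRG.6622.1 had 0.201 FPKM in cold acclimated cells and 1.34 FPKM in control cells, and MSTRG.6621.1 had 0.140 and 0.868 FPKM. Both were above 0.5 FPKM in control cells only, so the filter sets their direction in advance. MSTRG.6620.1, above 0.5 FPKM in both groups, was within 2-fold, at a log2 ratio of -0.83, or -0.20 relative to the median of all lncRNAs. The 3 transcripts at ralgapa2, which encodes a subunit of the GAP for Ral, did not go together. Within 7.12 kb of chromosome 17 (41773409 to 41780526), MSTRG.9896.1 had 3.21 FPKM in cold acclimated cells and 1.47 FPKM in control cells. MSTRG.9897.1 had 5.20 and 2.43 FPKM, and MSTRG.9898.1 had 0.580 and 1.39 FPKM. The first 2 were more than 2-fold higher and the last more than 2-fold lower, although relative to the median of all lncRNAs the last was within 2-fold.

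The MAP kinase and cyclin-dependent kinase classes had medians above 0 on the deposited scale, at 0.22 and 0.05. Of the 6 MAP kinase transcripts, none was more than 2-fold lower and 1 was more than 2-fold higher. Of the 5 at cyclin-dependent kinase genes, 2 (40.0%) were more than 2-fold lower and none higher. Relative to the median of all lncRNAs, the MAP kinase class had 2 higher and none lower. On that scale the cyclin-dependent kinase class had 2 higher and 2 lower. The shares of all lncRNAs were 39.4% lower and 13.3% higher, or 23.9% and 23.5% after centring. At mapk14b, a gene for the stress-activated kinase p38 alpha, 3 transcripts lie within 13.0 kb of chromosome 11 (2677179 to 2690190). MSTRG.2432.1, of 1 exon, had 0.832 FPKM in cold acclimated cells and 0.138 FPKM in control cells, a log2 ratio of 1.97. It was above 0.5 FPKM in cold acclimated cells only, so the filter sets its direction in advance. The overlapping MSTRG.2433.1 and MSTRG.2434.1 had 3.03 and 1.36 FPKM in cold acclimated cells. Each had 2.59 FPKM in control cells. The sum over the gene was 5.22 FPKM in cold acclimated cells and 5.31 FPKM in control cells, almost equal. At cdk6, a kinase of the G1 phase, MSTRG.12055.1 and MSTRG.12054.1 had log2 ratios of -2.03 and -1.74. MSTRG.12053.1 had 0.534 and 0.374 FPKM. Each of these cdk6 transcripts was above 0.5 FPKM in 1 group only, so the filter sets their directions in advance. At cdk5, MSTRG.18725.1 had 2.91 FPKM in cold acclimated cells and 2.81 FPKM in control cells, and MSTRG.18720.1 had 0.903 and 0.523 FPKM.

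Calcium signals act in part through the calcium/calmodulin kinases, and phosphodiesterases end the signals of cAMP and cGMP. Of 8 transcripts at calcium/calmodulin kinase genes, 4 were more than 2-fold lower and 1 more than 2-fold higher. Relative to the median of all lncRNAs, 1 was lower and 3 were higher. The shares of all lncRNAs were 39.4% lower and 13.3% higher, or 23.9% and 23.5% after centring. Of these genes only camk1b and camk2b1 have more than 1 transcript, and at each all lay on the same side of 0 on the deposited scale. Relative to the median of all lncRNAs, MSTRG.24320.1 at camk2b1 was not lower (0.25), unlike the others at that gene. Those others, MSTRG.24320.2 and MSTRG.24321.1, were above 0.5 FPKM in control cells only, so the filter sets their direction in advance. At camk1b on chromosome 11, MSTRG.2468.1 had 2.42 FPKM in cold acclimated cells and 0.689 FPKM in control cells, a log2 ratio of 1.67. At camk2b1 on chromosome 5 all 3 transcripts were below 0, from -1.85 for MSTRG.24320.2 to -0.39 for the overlapping MSTRG.24320.1, and MSTRG.24321.1 had 0.487 and 1.59 FPKM. At pde4bb, a cAMP phosphodiesterase gene on chromosome 2, MSTRG.12683.1, MSTRG.12684.1 and MSTRG.12685.1 had log2 ratios of -0.36, -1.10 and -1.32. MSTRG.12687.1, of 201 nt, was listed at 0 in control cells and had 0.572 FPKM in cold acclimated cells. The smallest ratio of this class was at pde4ca, where MSTRG.12926.1 had 0.0793 FPKM in cold acclimated cells and 0.700 FPKM in control cells. Of these phosphodiesterase transcripts, MSTRG.12684.1 and MSTRG.12926.1 were above 0.5 FPKM in control cells only, and MSTRG.12687.1 in cold acclimated cells only. The filter sets the direction of such transcripts in advance.

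Among the remaining serine/threonine kinases, 3 transcripts were more than 2-fold lower and 1 was higher, on both scales. All 4 were above 0.5 FPKM in 1 group only, so the filter sets their directions in advance. Of all lncRNAs above the filter, 39.4% were lower and 13.3% higher, or 23.9% and 23.5% after centring. The higher one, MSTRG.15612.1 at mark2a, a kinase that loosens microtubule-binding proteins from microtubules, has 2 exons on chromosome 21 (27161016 to 27188026). It had 1.73 FPKM in cold acclimated cells and 0.00508 FPKM in control cells, a log2 ratio of 4.12. At dapk2b, a death-associated protein kinase gene on chromosome 14, MSTRG.6506.1 and its neighbour MSTRG.6507.1 had 0.0946 and 0.0888 FPKM in cold acclimated cells. In control cells they had 0.861 and 0.650 FPKM. The log2 ratio of MSTRG.6506.1 was -2.30.

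Transcripts at 1 gene often lay on the same side of 0, but about as often as at other genes. Of 25 genes with 2 or more members above the filter, 11 had all of them below 0, 3 had all above 0 and 11 were mixed. That is 56.0% with 1 direction, against 55.0% of 489 other named genes. Over 67 pairs of members at 1 gene that do not overlap, 70.1% lay on the same side of 0, against 66.7% of 1049 pairs at other genes. Their log2 ratios differed by a median of 0.69, against 0.90 at the other genes. Relative to the median of all lncRNAs, 48.0% of the genes had 1 direction, against 48.7% of other named genes. On that scale 61.2% of the pairs lay on the same side, against 63.1% at other genes. These counts include transcripts above 0.5 FPKM in 1 group only, whose direction the filter sets in advance. All those of prkag2b and tgfbr3 are of this kind. No test was made of the shared direction, and the genes with many transcripts weigh most in the pairs.

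In cold acclimated cells 6 of the 133 members were listed at 0 (4.51%), and in control cells 4 (3.01%), against 4.79% and 3.22% of the lncRNAs at other named genes. The 10 included 7 of 1 exon, none of them longer than 282 nt. Apart from MSTRG.29549.5 and MSTRG.1892.5, none of them reached 1 FPKM in the other group.

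Kinase and GTPase signalling genes outside the prefixes were examined beside the members, from a list that was trimmed of nuclear receptors and other look-alike names after their values were seen. It holds 54 transcripts at 40 genes, such as the Eph receptors, met and sgk1. Of 52 above the filter, 27 (51.9%) were more than 2-fold lower and 4 (7.69%) more than 2-fold higher, with a median log2 ratio of -1.05. Relative to the median of all lncRNAs, 32.7% were lower and 15.4% higher. The share of lower transcripts on the deposited scale was near the 49.6% of the members. Among all lncRNAs above the filter, 39.4% were lower and 13.3% higher, or 23.9% and 23.5% after centring. Before trimming, the list held 66 transcripts at 46 genes, of which 64 were above the filter, with 50.0% lower and 9.38% higher.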

How the data were processed

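The deposited table holds FPKM values made by the authors, 1 mean for each group, beside the exon number, length and position of every transcript (GRCz10). The authors aligned reads with HISAT2 2.1.0, assembled and quantified transcripts with StringTie 1.3.3, and removed known and coding transcripts and those up to 0.5 FPKM. The 4 columns of their own comparison (fold change, p-value, FDR and call) were not used. Library depths are unknown, since FPKM keeps no counts. No interval was given, since the spread between cultures is unknown and transcripts of a gene are not independent of each other.

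From the means, log2 ratios were computed with 0.1 FPKM added, and 2-fold was the threshold. Ratios were also centred on the median of all lncRNAs above the filter. The calculation was tested on simulated data. Members were matched by gene name alone, but the prefixes and gene lists were chosen with earlier results of these data known. By rule, the lncRNAs named are the largest and smallest ratio of each class, the 5 highest means, genes with 3 or more transcripts, and those listed at 0 with 2 FPKM or more in the other group. Of the named lncRNAs, 1 class and 1 member of another class are not reported here. All other members and genes named were picked after their values were seen. Alternatives were tried for the added FPKM, filter, scaling, threshold and choice of transcripts. Software was matplotlib 3.10.9, scipy 1.17.1, pandas 2.3.3 and numpy 2.4.6 on Python 3.11.15.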

Additional observations from a re-analysis of the deposited data

How the results depend on the processing

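With 1 FPKM added in place of 0.1, 5 members were more than 2-fold higher and 22 more than 2-fold lower in cold acclimated cells (3.88% and 17.1%, against 3.90% and 7.99% of all lncRNAs), and the median log2 ratio was -0.54 for members and -0.34 for other named genes. With the median of all lncRNAs set to 0, the counts were 29 and 42 and the medians -0.34 and 0.06, with a change of sign for the other named genes. Above 1 FPKM in at least 1 group, 11 of 80 members were higher and 35 lower. The median was -0.89 for members and -0.46 for the other named genes. The shares of all lncRNAs were not computed at this filter. With 1 exon only, 10 of 72 members were higher and 37 lower (13.9% and 51.4%, against 12.9% and 43.8% of all lncRNAs). The median was then -1.09 for members and -0.84 for the other named genes. At a threshold of 4-fold, 6 were higher and 33 lower (4.65% and 25.6%, against 6.02% and 16.6% of all lncRNAs). Summed per gene, chosen after seeing the data, 10 were higher and 29 lower. In the settings that take a subset or a stricter threshold, fewer transcripts or genes were counted by construction. The other alternatives (0.01 FPKM added, no filter, 1 transcript per locus, genes that are no kinase, GTPase or direct regulator left out, and, chosen after seeing the data, gene names in any case) kept both counts within 1.5 times. Of 64 named transcripts, 30 changed their side of 2-fold or their sign with 1 FPKM added and 21 with centring. No paired analysis was possible because the table used here holds group means only, and no culture could be left out for the same reason.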

Other observations

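Genes written in capitals in the table were not matched by the lower-case prefixes. With any case allowed, 13 further transcripts at 12 genes would join, of which 12 were above the filter, 2 more than 2-fold higher and 3 more than 2-fold lower in cold acclimated cells. Among all lncRNAs above the filter, 13.3% were higher and 39.4% lower. The median log2 ratio of the 12 was -0.18, against -0.63 over all lncRNAs. The 3 lower ones, at ERBB4, MAP3K13 and PDGFRB, were above 0.5 FPKM in control cells only. The filter thus sets their direction in advance. The most abundant of those that were higher, MSTRG.21320.1 at PRKCA, a conventional protein kinase C, had 4.76 FPKM in cold acclimated cells and 1.28 FPKM in control cells. MSTRG.31501.1 at PDGFRB, a PDGF receptor of fibroblasts and other mesenchymal cells, lies on an unplaced scaffold and had 0.192 FPKM in cold acclimated cells and 1.84 FPKM in control cells. At TBC1D9B, 2 transcripts had log2 ratios of -0.62 and -0.22.

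At epha3, an ephrin receptor gene outside the prefixes on chromosome 9, transcripts of the same locus went opposite ways. MSTRG.30168.2 was listed at 0 in cold acclimated cells and had 3.75 FPKM in control cells. MSTRG.30168.1, which starts at the same base (16461511), had 0.814 FPKM in cold acclimated cells and 0.109 FPKM in control cells. MSTRG.30171.1 and MSTRG.30169.1 were lower in cold acclimated cells, with log2 ratios of -2.27 and -1.96. The values of the overlapping pair are uncertain, since their reads can be divided between them.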
